A study of Homo sapiens with 4 samples.

Results

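The genes described here are the D-type cyclins CCND1, CCND2 and CCND3, their kinases CDK4 and CDK6, the E-type cyclins CCNE1 and CCNE2, the A-type cyclin CCNA2 and the B-type cyclins CCNB1 and CCNB2. They were taken by symbol from a count table of 59050 genes, where all 10 had a row, and all 10 passed the filter on low counts that left 16516 genes. RNA came from RCC4 cells, an established line of clear cell renal cell carcinoma that lacks the tumour suppressor VHL. The cells carried a hairpin expressed on doxycycline, either a scrambled control (shCtrl) or one against PML (shPML), the scaffold protein of PML nuclear bodies. Both groups were transduced with the lentivirus, kept as bulk populations and given doxycycline at 100 ng/ml for 96 h, so the controls share the vector and the drug. There were 2 libraries per group, from 2 experiments with separate infections, here experiment 1 and experiment 2, following the replicate numbers of the labels.

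Progression through the cell cycle rests on kinases that are active only when bound to a cyclin. In G1, D-type cyclins bind CDK4 and CDK6, and the complexes phosphorylate the retinoblastoma protein, which otherwise holds E2F factors in check. E-type cyclins then activate CDK2 at the entry into S phase, cyclin A2 acts with CDK2 and CDK1 through S and G2 phase, and B-type cyclins drive CDK1 into mitosis. The mRNA of D-type cyclins follows growth factor signals, whereas that of E, A and B cyclins rises and falls with the cell cycle itself. D-type cyclins are of special interest in this tumour, since cyclin D1 is known to be raised by hypoxia-inducible factor in VHL-deficient renal carcinoma. PML is known in several cell types for its link with senescence, a lasting arrest of the cell cycle, and the comparison asks which parts of this machinery differ between shPML and shCtrl.

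Library totals ran from 27781193 to 69870617 counted reads, and the lowest was the shPML library of experiment 2. The markers of renal carcinoma cells were present in all libraries, with a summed level between 4714 and 8041 CPM, counts scaled to the library size by the TMM method. The shPML library of experiment 2 stood apart from the other libraries. It held 114 genes above 3 CPM that were under 0.3 CPM in each of the others, while no other library held such a gene. Among them were transcripts of monocytes and macrophages, such as CD14 at 42.8 CPM, against at most 0.111 CPM elsewhere, and LYZ at 85.4 CPM, against at most 0.0739 CPM. Of 16 macrophage markers, a list written after this was seen, 15 were highest in this library, and their summed level was 401 CPM there and 11.03 to 30.3 CPM in the others. CD68 was at 0 in it, as were the T cell marker CD3E and the fibroblast marker DCN. Because of this, the values of each member are also given within experiment 1, which does not hold that library, and the part of these transcripts in the results of experiment 2 was not tested. PML itself was at 93.1 and 136 CPM in the shCtrl libraries of experiments 1 and 2 and at 54.9 and 87.6 CPM in the shPML libraries. Its log2 ratio of shPML to shCtrl was -0.76 in experiment 1 and -0.63 in experiment 2.

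CCND1 and CCND2 differed in direction from the other 8 members. In both experiments the E, A and B cyclins were lower in shPML, with a median log2 ratio of -0.90 in experiment 1 and -1.33 in experiment 2, against 0.00 over all genes tested in each. The D-type cyclins and their kinases had no common direction, and their medians were -0.22 and -0.07. CCND1 and CCND2 were higher in shPML, while CCND3, CDK4 and CDK6 were lower. All 10 members had the same sign in both experiments, as had 74.1% of all genes tested.

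**Figure D1:**
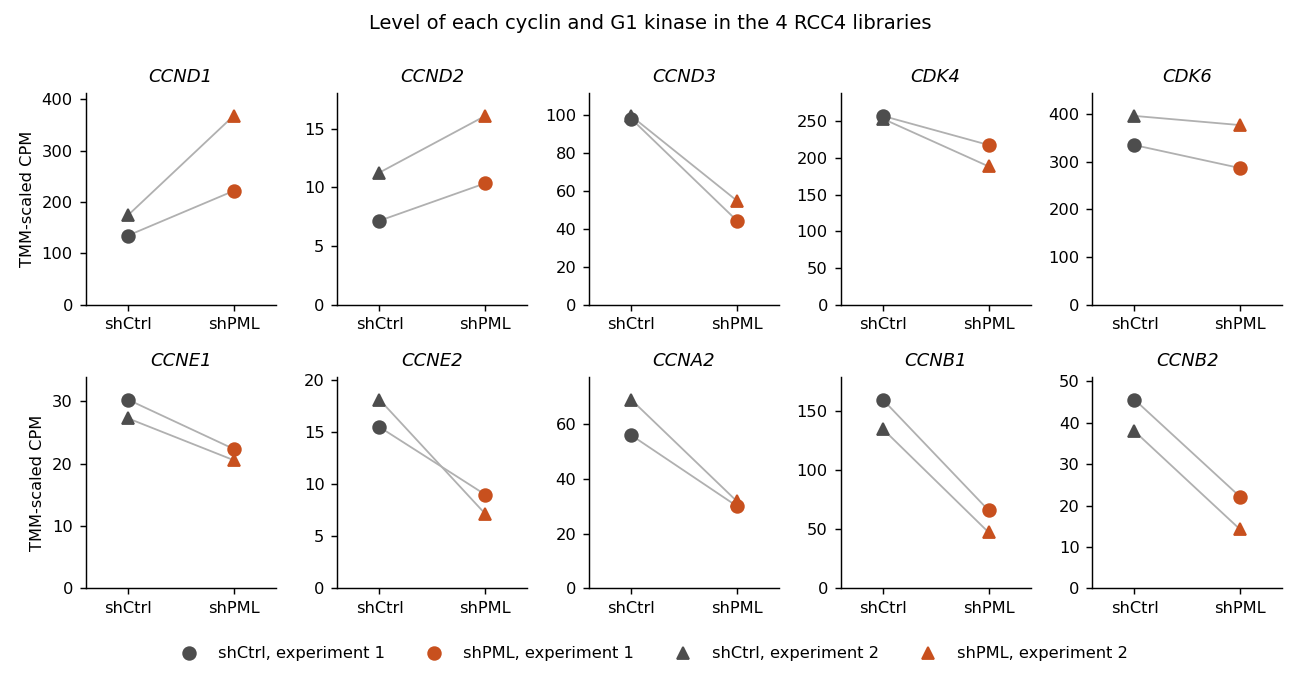
Level of each member in the 4 libraries, in TMM-scaled CPM on a linear axis that starts at 0. Points are single libraries, circles for experiment 1 and triangles for experiment 2, and grey lines join shCtrl with shPML of the same experiment; CCND1 and CCND2 lines rise from left to right and the other 8 descend.

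A call required an adjusted p (Benjamini-Hochberg) under 0.05 together with a log2 fold change larger than 0.5 in size. By edgeR's quasi-likelihood test, none of the 10 members was called when the experiment was not a term of the fit. That test called 0.0787% of all genes higher and 0.333% lower, with a smallest adjusted p of 0.0484 over all genes. At an unadjusted p under 0.05 it had 1 member higher and 6 lower, where 7.80% and 10.1% of all genes were so. With the experiment as a block, 2 members were called higher, where 8.57% of all genes were, and 5 were called lower, where 10.5% were. DESeq2 called 1 member higher and 5 lower without the block, beside 3.50% and 5.41% of all genes. CCND1 was the member called higher, and CCND3, CCNE2, CCNA2, CCNB1 and CCNB2 were those called lower. The same counts of members were called by DESeq2 with the block, beside 6.67% and 8.38% of all genes, and by edgeR without a filter on low counts, beside 2.96% and 3.14% of its 30093 genes. The calls therefore turned on how the experiments and the spread were treated. PML itself, the targeted gene, was not called without the block by edgeR (adjusted p = 0.32) or by DESeq2 (adjusted p = 0.22). It was called lower with the block by edgeR (adjusted p = 4.2e-07) and DESeq2 (adjusted p = 4.1e-07). EdgeR without the block and without a filter on low counts also called it lower (adjusted p = 0.024). With the shPML library of experiment 2 left out, edgeR without the block rests on 3 libraries and is read here by size only. The lone shPML library, of experiment 1, is there set against the controls of both experiments and taken to vary like those controls. In that fit the median log2 fold change was -0.92 for the E, A and B cyclins and -0.23 for the D-type cyclins and kinases. Both shPML libraries lay above both shCtrl libraries for 1 member and below them for 7, where 23.1% and 24.9% of all genes did so.

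**Figure D2:**
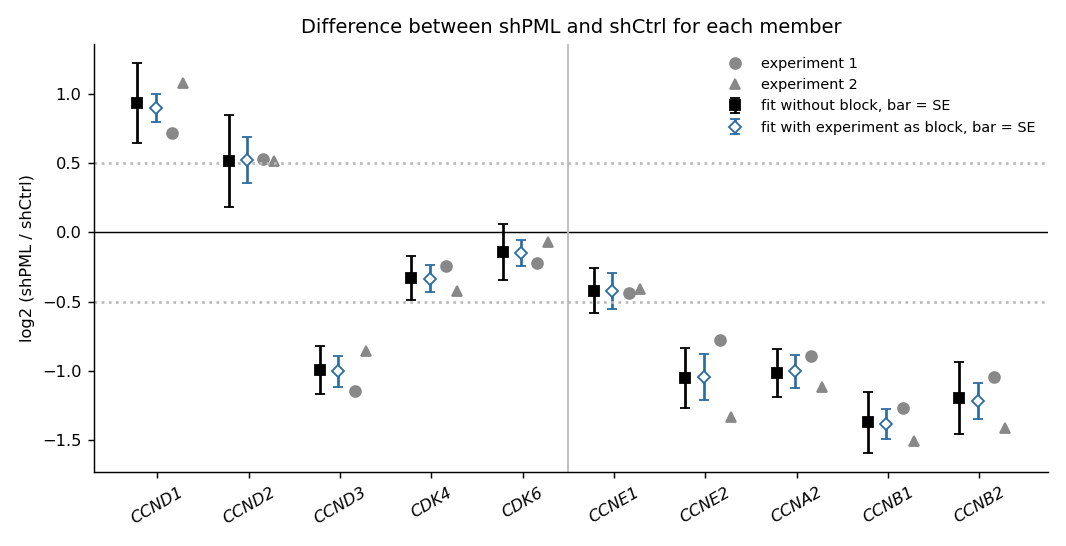
Log2 difference between shPML and shCtrl for each member. Black squares are the edgeR fit without block and open diamonds the fit with the experiment as block, each with its standard error as a bar; grey circles and triangles are experiments 1 and 2, dotted lines mark 0.5 and -0.5, and the vertical line parts the D-type cyclins and kinases from the E, A and B cyclins, all of which lie under 0.

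Among the D-type cyclins, CCND1 (cyclin D1, chromosome 11, positions 69641087 to 69654474 of GRCh38, 5 exon blocks on the plus strand) was the most abundant per length in every library. Its level was 134 and 174 CPM in the shCtrl libraries of experiments 1 and 2, and 221 and 367 CPM in the shPML libraries. Both shPML libraries lay above both controls, by a wider margin in experiment 2, whose control was also the higher one. The log2 ratio was 0.72 in experiment 1 and 1.08 in experiment 2. The fit gave 0.93 (standard error 0.29, edgeR adjusted p = 0.19), and with the experiment as a block 0.90 (adjusted p = 1.1e-10). So CCND1 rose by edgeR with the block and by DESeq2 without it (adjusted p = 0.032), but not by edgeR without the block. Without the shPML library of experiment 2 the unblocked value was 0.52, and over the 4 fits that each left out 1 library it ran from 0.52 to 1.24. LTO1, on the opposite strand, shares 11.3% of the CCND1 gene model.

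CCND2 (cyclin D2, chromosome 12, 4273762 to 4305353, 5 exon blocks on the plus strand) was the least abundant member. It was at 7.15 and 11.2 CPM in shCtrl and at 10.3 and 16.1 CPM in shPML, so the groups overlapped. The shift was nearly equal within each experiment, 0.53 and 0.51 on the log2 scale, and about as large between the experiments, 0.65 among the controls. It was called higher by edgeR with the block, with a log2 fold change of 0.52 (adjusted p = 0.012), and not by DESeq2 with the block (adjusted p = 0.089) or by edgeR without it (adjusted p = 0.51). Unblocked fits that left out 1 library also took in this difference between the experiments. They gave 0.17 without shPML replicate 2, the library with macrophage transcripts, and 0.24 without shCtrl replicate 1. The ratio within experiment 1, which does not hold that library either, was 0.53. Leaving out shPML replicate 1 gave 0.80, and leaving out shCtrl replicate 2 gave 0.87.

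CCND3 (cyclin D3, chromosome 6, 41934933 to 42050357, 8 exon blocks on the minus strand) went the other way. Its shCtrl values were 98.2 and 99.6 CPM, close to each other, and its shPML values were 44.4 and 54.9 CPM. Of the D-type cyclins it alone had both shPML libraries below the controls, at 45.2% of the control in experiment 1 and 55.1% in experiment 2. The log2 fold change was -1.0 (standard error 0.17, edgeR adjusted p = 0.073), and -1.0 with the block (adjusted p = 1.1e-10). CCND3 fell by the blocked test and by DESeq2 without the block (adjusted p = 0.00024). Without the shPML library of experiment 2 the edgeR log2 fold change was -1.15.

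These opposite shifts changed the make-up of D-type cyclin mRNA. On the TPM scale, which divides counts by the length of the gene model, CCND1 made up 54.0% and 59.4% of the summed D-type cyclin level in the shCtrl libraries and 79.6% and 83.6% in the shPML libraries. The share of CCND3 went from 44.1% and 38.03% to 17.8% and 13.95%, and that of CCND2 stayed between 1.95% and 2.61%. The ratio of CCND1 to CCND3 was thus 1.23 and 1.56 in shCtrl and 4.46 and 5.99 in shPML. The summed level itself overlapped between the groups, at 152 and 176 TPM in shCtrl and 169 and 270.0 TPM in shPML. In experiment 1 the sum differed little between the hairpins while its composition did.

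**Figure D3:**
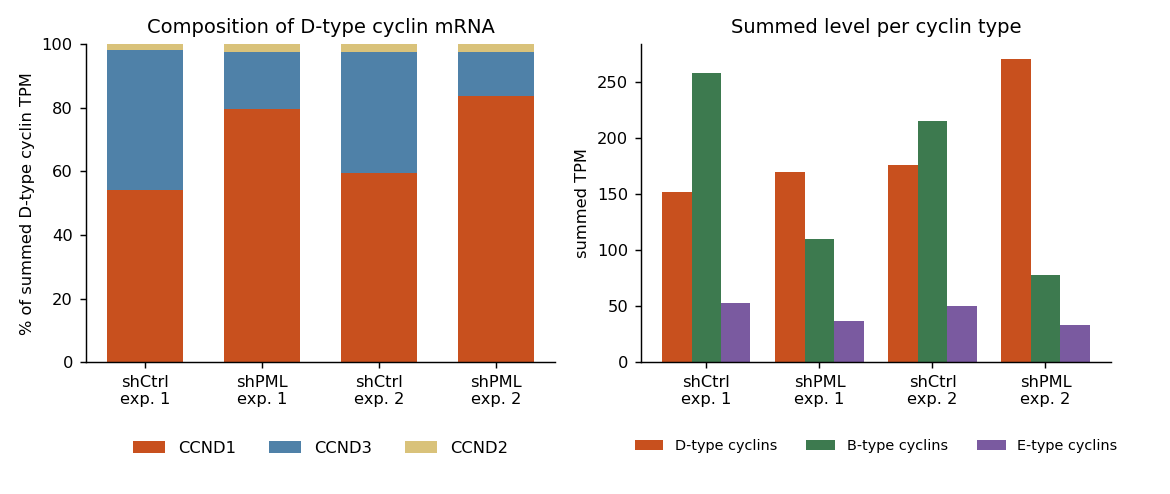
Left, share of each D-type cyclin in the summed D-type cyclin TPM of each library, in percent; right, summed TPM of D-type, B-type and E-type cyclins per library on an axis that starts at 0. Bars are single libraries of experiment 1 and experiment 2; CCND1 takes 54.0% to 59.4% in shCtrl and 79.6% to 83.6% in shPML, and B-type cyclin bars are shorter in shPML in both experiments.

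The partner kinases of the D-type cyclins moved less. CDK4 (chromosome 12, 57747727 to 57752447, 8 exon blocks on the minus strand) was at 257 and 254 CPM in shCtrl and at 218 and 189 CPM in shPML. Both shPML libraries were below the controls, which lay close together. Its log2 ratio was -0.24 and -0.43 in experiments 1 and 2, and the fit gave -0.33 (standard error 0.16, edgeR adjusted p = 0.36). With the block the adjusted p was 0.0067, under the threshold, but the change of -0.33 did not reach the required size of 0.5. TSPAN31 on the opposite strand shares 53.8% of the CDK4 gene model, and was at 18.7 and 16.9 CPM in shCtrl and 32.96 and 24.5 CPM in shPML. The strand setting of the counting is not given in the sources used here, so reads of the shared bases could have been assigned to either gene or to none.

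CDK6 (chromosome 7, 92604921 to 92836594, 9 exon blocks on the minus strand) was at 334 and 396 CPM in shCtrl and at 286 and 376 CPM in shPML. The groups overlapped, and each experiment's pair differed by less than the experiments did. The log2 ratios were -0.22 and -0.07, and the log2 fold change was -0.14 (standard error 0.20, edgeR adjusted p = 0.80), and -0.15 with the block (adjusted p = 0.26). Without the shPML library of experiment 1 the sign of the unblocked value turned, to 0.04, and without that of experiment 2 it was -0.35. These fits also take in the difference between the experiments, which was 0.24 on the log2 scale among the controls. As shares of summed G1 kinase TPM, CDK6 held 18.2% and 21.0% in shCtrl and 18.3% and 25.4% in shPML. CCND1 per unit of CDK4, both in TPM, went from 0.237 and 0.311 to 0.462 and 0.885. These shares and ratios carry the limit given above for reads of the bases that CDK4 shares with TSPAN31.

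Both E-type cyclins, the activators of CDK2, were lower in shPML, by unequal amounts. CCNE1 (cyclin E1, chromosome 19, 29811991 to 29824312, 12 exon blocks on the plus strand) was at 30.2 and 27.3 CPM in shCtrl and at 22.3 and 20.5 CPM in shPML. Each shPML library was at a like share of its control, 73.9% and 75.4%. The log2 fold change was -0.42 (standard error 0.16, edgeR adjusted p = 0.27), and with the block its adjusted p was 0.0078 at a change of -0.42, again short of the required size. CCNE2 (cyclin E2, chromosome 8, 94879770 to 94896678, 13 exon blocks on the minus strand) was at 15.5 and 18.1 CPM in shCtrl and at 9.01 and 7.16 CPM in shPML. It was at 58.1% of the control in experiment 1 and at 39.5% in experiment 2, so the experiments differed more for it than for CCNE1. Its log2 fold change was -1.05 (standard error 0.22, edgeR adjusted p = 0.097), and -1.04 with the block (adjusted p = 5.8e-07). CCNE2 fell by the blocked test and by DESeq2 without the block (adjusted p = 0.0044). INTS8 on the opposite strand shares 47.5% of the CCNE2 gene model, and its level was 34.5 and 33.5 CPM in shCtrl and 34.8 and 29.1 CPM in shPML. CCNE1 held most of the E-type cyclin level in every library, from 72.2% to 83.2% of the TPM. As for CDK4, reads of the bases that CCNE2 shares could have been assigned to either gene or to none, which would alter these shares.

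CCNA2 and the B-type cyclins had the largest falls beside CCND3 and CCNE2. CCNA2 (cyclin A2, chromosome 4, 121816444 to 121823933, 8 exon blocks on the minus strand) was at 56.0 and 69.0 CPM in shCtrl and at 30.1 and 31.9 CPM in shPML. The shPML libraries lay close together and well below both controls. Its log2 ratio was -0.90 in experiment 1 and -1.11 in experiment 2, and the fit gave -1.01 (standard error 0.17, edgeR adjusted p = 0.073), or -1.0 with the block (adjusted p = 5.5e-10). EXOSC9 on the opposite strand shares 5.15% of its gene model.

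CCNB1 (cyclin B1, chromosome 5, 69167150 to 69178245, 9 exon blocks on the plus strand) had the lowest log2 fold change of the 10 members. It was at 160.0 and 135 CPM in shCtrl and at 66.2 and 47.5 CPM in shPML. The groups were far apart, with the shPML library at 41.4% of its control in experiment 1 and at 35.2% in experiment 2. The log2 fold change was -1.37 (standard error 0.22, edgeR adjusted p = 0.068), and -1.39 with the block (adjusted p = 3.8e-16), and 2.81% of all genes tested had a lower one without the block. Without the shPML library of experiment 2 it was -1.16.

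CCNB2 (cyclin B2, chromosome 15, 59105146 to 59125045, 8 exon blocks on the plus strand), the other B-type cyclin with a role in mitotic entry, stood at 45.6 and 37.97 CPM in shCtrl and at 22.1 and 14.2 CPM in shPML. It followed CCNB1 from library to library. The log2 ratios were -1.04 and -1.41, and the fit gave -1.20 (standard error 0.26, edgeR adjusted p = 0.10), or -1.22 with the block (adjusted p = 1.3e-11). Without the shPML library of experiment 2 it was -0.92. In RNA from a whole culture, fewer cells in the phases in which these cyclins are made and less of their mRNA per cell cannot be told apart.

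The upstream sequence of the A and B cyclins is shown because these genes had the falls common to the S, G2 and M phase cyclins, and because genes of these phases are known for CCAAT boxes, bound by NF-Y, and for a CHR element, bound by the MuvB complexes, near their start. RefSeq promoter windows on GRCh38.p14, from 250 bases before to 50 after a start, were listed for 7 of the 10 members (10 windows), and CCND1, CCND2 and CCNE2 were not among them. The stretches below run 5′ to 3′ on the gene's own strand. Capitals mark the word CCAAT, which reads as ATTGG where it lies on the opposite strand. They also mark the CHR forms TTTGAA or, in its place, TTTAAA. The B cyclin stretches end at -1, but that of CCNA2 ends at -51, where its gene model in the counts begins. Neither CHR form was found anywhere in the whole CCNA2 window, and other forms were not searched.
CCNA2, chr4:121823934-121824013, minus strand: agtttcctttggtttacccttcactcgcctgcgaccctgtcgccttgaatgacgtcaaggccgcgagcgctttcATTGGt
CCNB1, chr5:69167020-69167149, plus strand: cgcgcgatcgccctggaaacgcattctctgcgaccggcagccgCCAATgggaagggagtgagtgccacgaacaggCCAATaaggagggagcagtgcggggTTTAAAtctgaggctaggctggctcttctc
CCNB2, chr15:59105016-59105145, plus strand: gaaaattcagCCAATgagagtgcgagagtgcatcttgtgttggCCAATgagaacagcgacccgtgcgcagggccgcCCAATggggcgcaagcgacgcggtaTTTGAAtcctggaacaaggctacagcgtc

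Both B-type cyclins had CCAAT words spaced by 32 or 33 bases upstream of a CHR word. In CCNB1 the CCAAT words began at -87 and -55 and TTTAAA at -30 from the RefSeq start. In CCNB2 they began at -120, -87 and -54, with TTTGAA at -29, and its window held another CCAAT at -244 and TTTAAA at -193. A pair of CCAAT words at that spacing, a measure chosen after these positions were seen, was in 0.513% of the 35116 windows, whereas CCAAT alone was in 34.6% and a CHR word in 24.0%, searched on both strands. CCNA2 had 1 CCAAT word, on the opposite strand at -56, CCNE1 had TTTAAA at -28, and 2 of the 3 windows of CCND3 had CCAAT. The windows of CDK4 and CDK6 had none of these words, and no member window had the E2F words TTTCCCGC, TTTCGCGC, TTTGCCGC or TTTGGCGC, found in 3.31% of all windows. These matches describe letters in a window and not bound sites.

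The mean levels of the 2 classes moved further apart in shPML. CCND3, CDK4 and CDK6 were lower there, as were the E, A and B cyclins. The mean log2 CPM of the E, A and B cyclins minus that of the D-type cyclins and kinases was -1.08 and -1.36 in the shCtrl libraries of experiments 1 and 2, and -1.89 and -2.56 in the shPML libraries. The ratio of summed D-type cyclin TPM to summed E, A and B cyclin TPM was 0.416 and 0.533 in shCtrl and 0.961 and 1.90 in shPML. Summed B-type cyclin TPM was 258 and 215 in shCtrl and 110.2 and 78.0 in shPML, and summed E-type cyclin TPM went from 52.9 and 50.4 to 37.2 and 33.6. CCND1 and CCNB1 changed places, with a TPM ratio of CCND1 to CCNB1 of 0.387 and 0.592 in shCtrl and of 1.54 and 3.56 in shPML. Experiment 1 alone showed each of these shifts in the same direction as experiment 2.

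**Figure D4:**
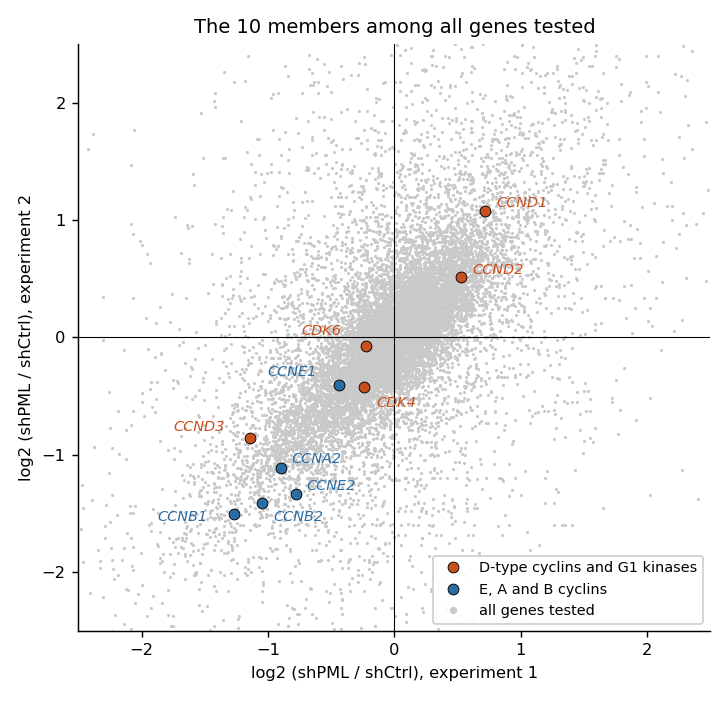
Log2 ratio of shPML to shCtrl in experiment 1 (horizontal) against experiment 2 (vertical) for the 16516 genes tested (grey; 499 lie outside the axes) with the members on top. The E, A and B cyclins (blue) all sit in the lower left corner region, CCND1 and CCND2 in the upper right, and the other D-type cyclin and the kinases (orange) in the lower left, with CDK6 closest to the origin.

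Per length, the order of levels in shCtrl was CDK4 (340 ± 6.37 TPM, SD, n = 2), CCNB1 (194 ± 24.7), CCND1 (93.2 ± 16.1), CDK6 (83.0 ± 9.17), CCND3 (66.9 ± 0.148), CCNA2 (59.6 ± 8.28), CCNB2 (42.5 ± 5.83), CCNE1 (38.6 ± 3.15), CCNE2 (13.1 ± 1.35) and CCND2 (3.77 ± 1.16). The control ranges of CCND1 and CDK6 overlapped, as did those of CCNB2 and CCNE1, so the order of these neighbours was not resolved. The TPM of CDK4 and CCNE2 also depends on how reads of the bases shared with TSPAN31 and INTS8 were assigned. In shPML CDK4 was still first at 273 ± 26.3 TPM and CCND1 came next at 180.3 ± 64.2 TPM. CCNB1 went from the second to the fourth place, at 75.5 ± 17.1 TPM, but its range overlapped that of CDK6, at 76.2 ± 15.1 TPM, so their order was not resolved. The wide spread of CCND1 in shPML comes from its values of 135 TPM in experiment 1 and 226 TPM in experiment 2.

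Pattern across the 4 libraries was compared by the Euclidean distance between log2 CPM values centred on each gene's mean, where 0 is an identical course. Among the members the closest were CDK4 and CCNE1 (0.140), then CCNB1 and CCNB2 (0.196) and CCND3 and CCNA2 (0.253). CCND1 and CCND2 were each other's nearest member at a wider distance of 0.433, and CDK6 had no member closer than 0.501. Over all genes the most alike to CCNA2 were UHMK1 (0.0164) and MYBL2 (0.0448), to CCNB1 WDHD1 (0.0453) and PLK4 (0.0969), and to CCNB2 NDC80 (0.0491) and AC022784.1 (0.0550). MYBL2 is a transcription factor of cell cycle genes, PLK4 the kinase of centriole duplication and NDC80 a kinetochore protein. The most alike to CCND1 were SOCS3 (0.0576), a feedback inhibitor of cytokine signals, and AC002066.1 (0.0597), to CCND2 RNF217 (0.0468) and ZBTB17 (0.0667), and to CCND3 CINP (0.0327) and FOXD2-AS1 (0.0815). CDK4 was closest to PHF5A (0.0219) and SEPT7P2 (0.0243), CDK6 to MIIP (0.025) and TMEM143 (0.0302), CCNE1 to CDC14B (0.0128) and HIST1H1C (0.0215), and CCNE2 to AC125807.2 (0.0649) and SPATA5 (0.0844). With 4 libraries and 16516 genes, no test was made of these distances.

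The kinases and activators that work with these cyclins were mostly lower as well, read here by edgeR with the block. Of 10 such genes, 6 were called lower and 0 higher, where 10.5% and 8.57% of all genes were. Their median log2 fold change was -0.71 without the block, against 0.01 over all genes. CDK2, the kinase of E-type cyclins and cyclin A2, was at 51.7 and 51.2 CPM in shCtrl and at 19.2 and 16.2 CPM in shPML. Its log2 fold change of -1.54 was also called without the block (edgeR adjusted p = 0.048), a call that RLE scaling lost at an adjusted p of 0.0501, as it did for UBE2C and BIRC5 below. CDK1, the mitotic kinase, went from 85.5 and 80.2 CPM to 38.6 and 25.7 CPM, a log2 fold change of -1.36 (adjusted p = 0.072, and 2.9e-14 with the block). CKS1B, an adaptor of cyclin-bound kinases, had a log2 fold change of -1.75 (adjusted p = 0.068, and 1.3e-16 with the block). The kinase that activates them, made of CDK7, CCNH and MNAT1, had no member called, and CDK7 was at 28.3 and 26.4 CPM in shCtrl and 29.0 and 26.3 CPM in shPML. Among 19 other kinases of the family, CDK1 and CDK2 included, 3 were called lower and 0 higher, beside 10.5% and 8.57% of all genes. Their median was 0.01.

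Inhibitors of the cyclin-bound kinases differed in direction from gene to gene. Of 7 tested out of 9, 2 were called higher and 3 lower with the block, where 8.57% and 10.5% of all genes were. CDKN1A, which encodes p21, was at 299 and 229 CPM in shCtrl and 379 and 453 CPM in shPML, a log2 fold change of 0.66 with the block (edgeR adjusted p = 7.0e-07), and 0.66 without it (adjusted p = 0.19). DESeq2 with the block did not call it (adjusted p = 0.13), and its log2 ratio was 0.34 in experiment 1 and 0.99 in experiment 2, which holds the library with macrophage transcripts. WEE1 and PKMYT1, the kinases that hold CDK1 inactive until mitosis, had log2 fold changes of -1.01 and -1.39 (adjusted p = 6.4e-10 and 1.4e-14 with the block). CDKN2A, which encodes the CDK4 and CDK6 inhibitor p16, was at 0 counts in all 4 libraries, and CDKN2B, which encodes p15, was at 0 counts in 3 libraries and at 26 in the shPML library of experiment 2. CDKN1A, CDKN2A, CDKN2B, CDK7, CCNH and MNAT1 were named after their values were seen.

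Genes of cyclin turnover were called lower more often than higher. Of 14 genes, 6 were called lower and 1 higher with the block, where 10.5% and 8.57% of all genes were. Their median was -0.23. UBE2C, the ubiquitin-conjugating enzyme of the complex that degrades B-type cyclins, went from 130.3 and 153 CPM to 52.8 and 51.1 CPM, a log2 fold change of -1.45 that was called without the block too (edgeR adjusted p = 0.048). CDC20, the activator of that complex in mitosis, had a log2 fold change of -1.17 (adjusted p = 0.053, and 3.3e-14 with the block).

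Downstream of the G1 kinases, 10 of 19 pocket proteins, E2F factors and their partners were called lower with the block and 0 higher. The median of these 19 was -0.53. Over all genes tested, 10.5% were called lower and 8.57% higher. RB1, the retinoblastoma gene and main substrate of cyclin D complexes, was at 66.3 and 74.7 CPM in shCtrl and at 28.4 and 38.4 CPM in shPML. Its log2 fold change was -1.08 (edgeR adjusted p = 0.083, and 3.6e-11 with the block). MYBL2 and FOXM1, transcription factors of G2 and M phase genes, had log2 fold changes of -1.0 and -0.79 (adjusted p = 4.9e-12 and 1.9e-09 with the block). Of 17 other cyclins tested out of 20, 2 were called lower, a share close to the 10.5% over all genes, and 0 higher. Their median was -0.16. CCNF, itself expressed in G2 phase and also counted above among the genes of cyclin turnover, had a log2 fold change of -0.76 (adjusted p = 3.6e-07 with the block). CCNL2, a cyclin of transcription and splicing, had one of 0.47 that fell short of the required size.

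**Figure D5:**
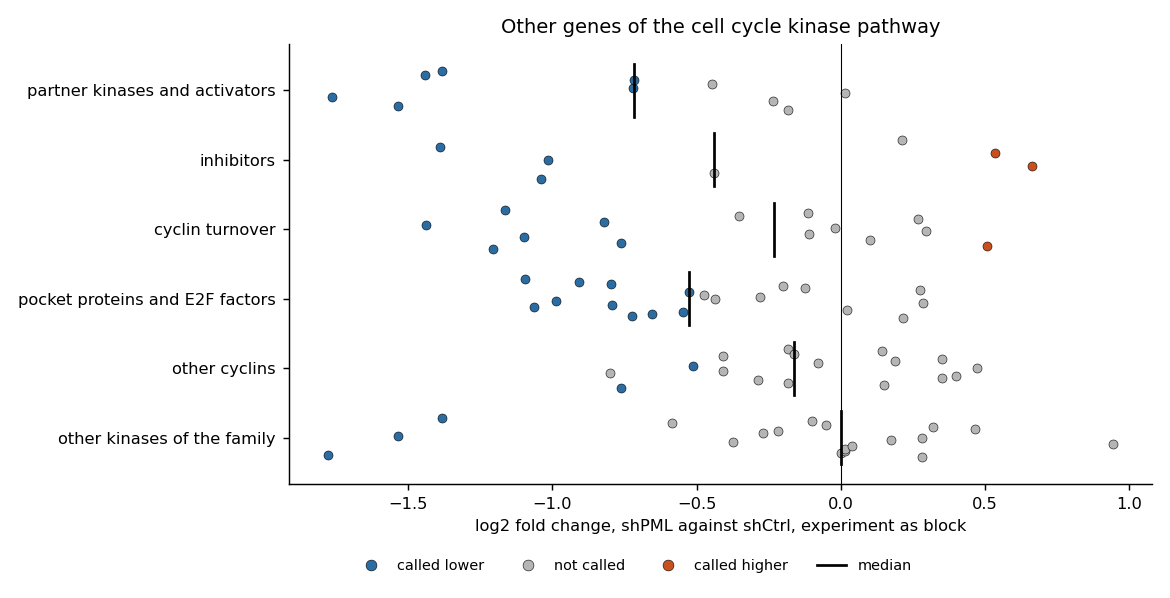
Log2 fold change from edgeR with the experiment as block for the tested genes of 6 lists around the members, 1 point per gene, spread vertically for visibility. Blue points were called lower, orange points higher and grey points neither, and the black bar is the median of each list; the lists of partner kinases and of pocket proteins and E2F factors have no orange point.

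General markers of proliferation were lower along with the E, A and B cyclins. Of 12 such markers, 9 were called lower and 0 higher with the block, where 10.5% and 8.57% of all genes were. Their median was -0.93, and their summed level went from 2327 and 2183 CPM in shCtrl to 1301 and 1211 CPM in shPML. BIRC5, the inhibitor of apoptosis with a role in cell division, had a log2 fold change of -1.52 (edgeR adjusted p = 0.048 without the block), and AURKB, a mitotic kinase, one of -1.22 (adjusted p = 0.055, and 2.1e-13 with the block). Targets of hypoxia-inducible factor, to which CCND1 belongs in this tumour type, were mixed. Of 12, 2 were called higher and 2 lower with the block, beside 8.57% and 10.5% of all genes, with a median of 0.15. NDUFA4L2 had a log2 fold change of 0.96 (adjusted p = 0.22, and 9.3e-12 with the block), while SLC2A1, the glucose transporter, and ANKRD37 had -0.76 and -1.18 (adjusted p = 1.0e-09 and 4.0e-05 with the block). Of 8 renal carcinoma markers, 1 was called higher with the block, NDUFA4L2, beside 8.57% of all genes, and KRT8 was at -0.38. The 9 markers of other cell types summed to 73.9 CPM in the shPML library of experiment 2 and to 11.8 to 25.9 CPM in the others, with CD14 at 42.8 CPM, PTPRC at 12.6 CPM and PECAM1 at 4.11 CPM in that library and CD3E and DCN at 0 in all. Of these 9, 2 passed the filter, and their log2 fold changes were -0.38 for COL1A1 and -1.42 for PDGFRB (adjusted p = 0.55 and 0.25). Within experiment 1, without the library that stood apart, the median log2 ratio was -0.63 for the partner kinases and activators, -0.40 for the inhibitors, -0.23 for cyclin turnover, -0.57 for the pocket proteins and E2F factors, -0.96 for the proliferation markers and 0.17 for the targets of hypoxia-inducible factor. The median of the other cyclins was at 0.03 there, with the opposite sign to that over all libraries, and that of the other kinases at -0.04.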

How the data were processed

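RNA of RCC4 cells was measured in 4 libraries, 2 shCtrl and 2 shPML. The authors made stranded mRNA libraries, trimmed single-end reads with Trimmomatic 0.39, used STAR for alignment to GRCh38 and featureCounts 1.6.4 for counting on Gencode genes (release and strand setting not given in the sources used here). The deposited values are raw counts per gene, with gene length as another column. In each group 1 column is numbered 2 and the other has no number, and the latter was read as replicate 1. According to the record, the labels of 2 samples were first deposited swapped, and their corrected form was used.

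Tests were run with edgeR 4.0.16 in R 4.3.3 (filterByExpr, TMM, quasi-likelihood test, Benjamini-Hochberg over 16516 genes) and DESeq2 1.42.0, and tables and figures were made in Python 3.11.15 with pandas 2.3.3 and matplotlib 3.10.9. The study used DESeq2 and names no covariate. Here edgeR without a block is the first test given, with DESeq2 as an alternative. Replicate numbers were read as the 2 experiments that the methods describe. When each library was set against its group mean, same-numbered libraries deviated together (correlation 0.546 across genes), and the experiments took 44.9% of the variance and the conditions 41.8%. The blocked fit is therefore given beside the other. Standard errors are the fold change over the root of F. Within-experiment log2 ratios use a prior count of 2. TPM came from counts and the Length column without TMM. An exact permutation test of 2 against 2 cannot give a two-sided p under 0.333, so none was used. The libraries of a group came from bulk populations of separate infections, and p-values of the unblocked fits set the difference against the spread between libraries. Those of the blocked fits set the difference against the disagreement between the 2 experiments. With so few libraries, they also rest on the spread shared across genes. A small p-value there is therefore no measure of how well the experiments agreed for that gene. With the block, CCND2 had log2 ratios of 0.53 and 0.51 and an edgeR adjusted p of 0.012. CCND1 had ratios of 0.72 and 1.08 and an adjusted p of 1.1e-10. The common dispersion in edgeR was 0.0137 with the block and 0.0813 without it. All fits share information on the spread across genes.

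Members and lists were chosen with earlier results of these data known, and the macrophage list and the values of experiment 1 alone as an alternative were added after seeing the data. Besides the members, the genes named are the 2 of each list with the smallest unadjusted p, CDK1, CDK2 and RB1, the 2 genes closest to each member, and those whose exons overlap a member. Others are marked in the text as named after their values were seen. Alternatives were RLE scaling, no filter, DESeq2, the block, no size threshold and each library left out. The fits were run on simulated data only to check that they return the size of planted changes. Those data had no library that stood apart and took their spread from the blocked design. They therefore cannot decide between the fits with and without the block. The amino acid words planned for the proteins were not searched.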

Additional observations from a re-analysis of the deposited data

How the results depend on the processing

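Of 99 values of single members and PML under alternatives with a test, 70 kept their direction and side of the threshold, 28 gained a call and 1 turned its sign, CDK6, which ran from -0.35 to 0.035 over the fits that left out 1 library and was at 0.035 without shPML replicate 1. Neither PML nor a member was called in the first fit, and RLE scaling and 3 fits that left out 1 library called no gene. Values under those alternatives could turn their direction but could not gain a call, so their side of the threshold was fixed. The 11 values of experiment 1 alone, which have no test, kept their direction. The counts of genes called higher and lower were 13 and 55, and moved to 1415 and 1735 with the replicate block, 578 and 894 with DESeq2, 1102 and 1384 with DESeq2 and the block, 0 and 0 with RLE scaling in edgeR (2967 genes at an unadjusted p under 0.05, smallest adjusted p 0.0501), and 891 and 946 with no filter on low counts. Leaving out each library in turn gave 0 to 187 genes higher and 0 to 61 lower, both upper values without shPML replicate 1; the other 3 fits called 0, with 1410 to 2092 genes at an unadjusted p under 0.05. The members called higher and lower went from 0 and 0 to 2 and 5 with the block, and to 1 and 5 under both forms of DESeq2 and with no filter. The median log2 fold change of the D-type cyclins and G1 kinases, -0.14, ran from -0.24 to 0.035 over the fits that left out 1 library, with 0.035 without shPML replicate 1, where CDK6 is the middle value, and -0.02 without shCtrl replicate 2. Fits that left out 1 library had no term for the experiment, so their values also take in the difference between the experiments. That of the E, A and B cyclins, -1.05, kept its direction under every alternative. With 2 libraries per group the spread rests on few values, and the adjusted p of each member spans a wide range over the alternatives (for CCNB1 from 5.5e-26 to 0.39, for CCND1 from 1.6e-12 to 0.58). The fits without shPML replicate 2, the library with the macrophage transcripts, kept the direction of all 10 members.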
